A study of Mus musculus with 6 samples.

Results

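The 10 genes described here restrain the Wnt pathway: Axin2, Nkd1, Wif1, Notum, Dkk2, Dkk3, Apcdd1, Rnf43, Znrf3 and Sfrp1. They were chosen by name, and all 10 were found by their Ensembl identifier among the 34866 genes of the count table. All 10 also passed the filter on low counts, which 16536 genes passed. The comparison is between adenomas of Apc1322T/+ mice (3 libraries) and of ApcMin/+ mice (3 libraries). Both groups were C57BL/6J mice aged 100 to 120 days, and their adenomas were excised from the intestine and frozen. In each group 1 of the 2 copies of Apc carries a germline truncation. The Apc1322T product is the longer of the pair and keeps some of the β-catenin binding sites that the ApcMin product lacks. Each sample typically pooled several RNA extractions from 1 mouse, and no normal tissue was analysed here, so every value is a level or a difference within adenomas.

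Wnt proteins bind Frizzled receptors and Lrp5 or Lrp6 at the cell surface, which stops the Axin and Apc complex from marking β-catenin for destruction. β-catenin then joins Tcf/Lef factors in the nucleus and switches on target genes, and several of those targets encode inhibitors that feed back on the pathway. Loss of Apc has the same effect on β-catenin without any Wnt signal, and feedback inhibitors are well known as highly expressed genes of intestinal adenomas. Wif1 and Sfrp1 are secreted proteins that bind Wnt, Notum is a secreted enzyme that removes the lipid from Wnt, and Dkk2 is a secreted antagonist of the Lrp co-receptors. Dkk3 is a secreted relative of Dkk2 whose action on Wnt signalling is less clear. Apcdd1 is a membrane protein that binds Wnt and Lrp proteins, and Rnf43 and Znrf3 are membrane ubiquitin ligases that remove Frizzled receptors. Axin2 and Nkd1 act inside the cell, Axin2 as a scaffold of the destruction complex and Nkd1 as an antagonist of Dishevelled, so the group is not made up of secreted and membrane proteins alone.

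The 6 libraries held between 23132461 and 33518324 estimated counts (a read that fits several transcripts is divided between them), and a gene with 3 counts would lie at 0.0838 to 0.143 CPM, the count divided by the TMM-scaled library size. This floor covers counting error only. The members were counted between 160 and 11447 times in a library, and the precision was set by how far libraries differed rather than by counting. No pair of libraries agreed within sampling noise, as the chi-square statistic per gene was at least 22.8 between any pair. ApcMin replicate 1 stood apart by RNA of pancreas acinar cells, with 2679 counts of Ctrb1 against 2 to 16 in the other libraries, 813 of Prss2 against 0 to 3, 560 of Pnlip against 0 to 2, 459 of Cpa1 against 0 to 2 and 286 of Cel against 0 to 4. Another acinar marker, Cela1, did not follow and was not highest in ApcMin replicate 1. It made up most of the acinar marker level in the other libraries. The acinar genes named here were picked after their values were seen, and the part of this RNA in any result on the members was not tested. As these are whole adenomas, fewer cells of a type and less RNA per cell cannot be told apart.

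None of the 10 inhibitors differed between the genotypes at the study's threshold, an adjusted p under 0.01 in edgeR's quasi-likelihood test. The background was the same, with 0 of 16536 genes called (0%). DESeq2, the study's own tool, called 194 of 17346 genes (1.12%) and also 0 of the 10 members. At an unadjusted p under 0.05, edgeR gave 2 of the 10, Apcdd1 and Sfrp1, beside 15.1% of all genes tested. The libraries of the genotypes did not overlap for 1 member, Sfrp1, beside 21.0% of all genes tested. The estimated level was higher in ApcMin adenomas for 9 of the 10 members, with a median log2 fold change (ApcMin over Apc1322T) of 0.28, beside a median of 0.017 over all genes tested. Members are not replicates, and 8 of them shared a library pattern described below, so this count of directions is not a test. Without ApcMin replicate 1, all 10 estimates were above 0, from 0.18 for Nkd1 to 1.24 for Apcdd1 (median 0.45), and 0 members were called by edgeR. In that library 8 members were lowest within ApcMin, so leaving it out raised their estimates. Over all fits with 1 library left out, this median was the highest. The lowest was 0.19, without ApcMin replicate 3, where Nkd1, Notum and Dkk3 were below 0.

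**Figure D1:**
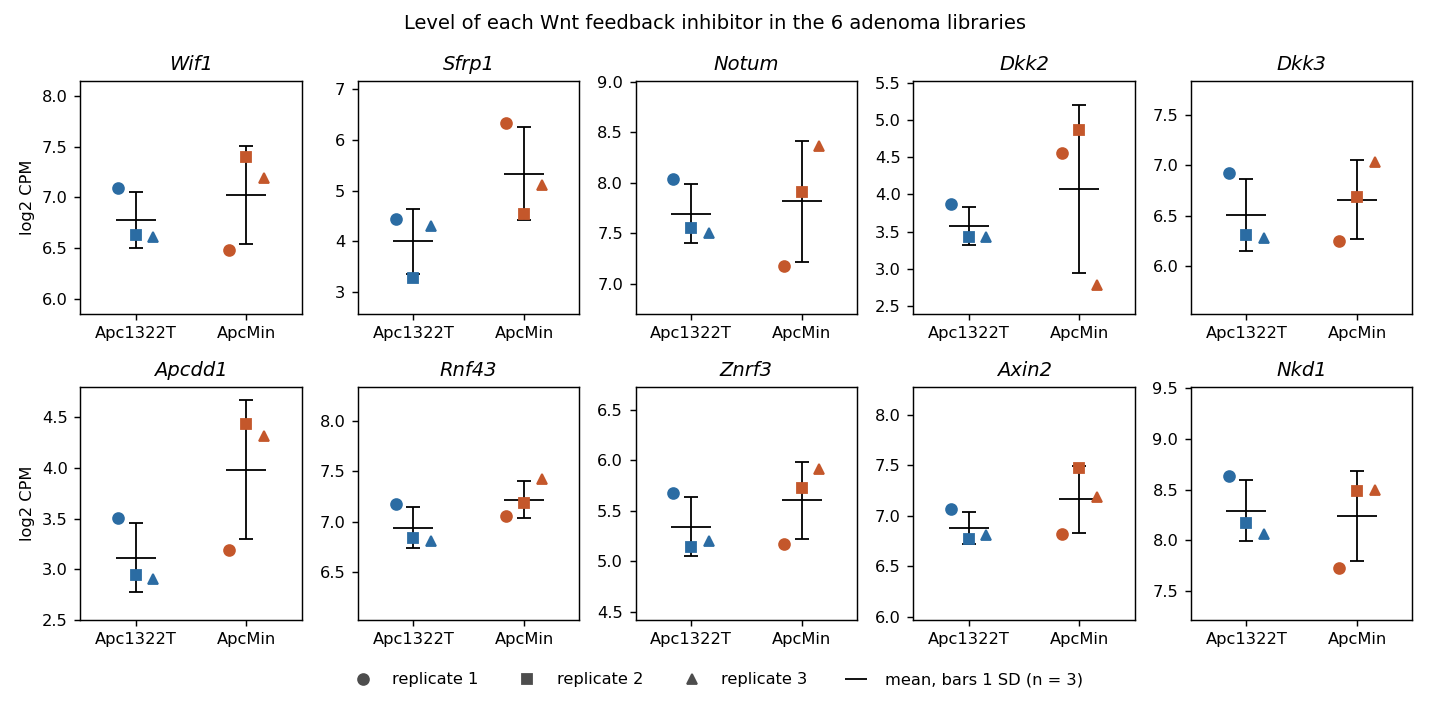
Level of each gene in log2 CPM (vertical axis, a separate range for each gene) in the 3 Apc1322T and 3 ApcMin libraries, with the replicate number as the symbol and mean and SD (n = 3) as lines. The genotypes overlap for every gene except Sfrp1, and replicate 1 is the highest Apc1322T point for all 10 genes.

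Among the secreted inhibitors, Sfrp1 (chr8:23411502-23449632, plus strand; all gene positions are on GRCm38) had the largest difference of the 10. Its level was 4.45, 3.27 and 4.29 log2 CPM in Apc1322T replicates 1 to 3, and 6.34, 4.54 and 5.12 in ApcMin replicates 1 to 3. All 3 ApcMin libraries lay above all 3 Apc1322T libraries, although the lowest ApcMin and the highest Apc1322T library were close and ApcMin replicate 1 stood well above the rest. The log2 fold change was 1.45 (SE 0.53, 95% interval 0.15 to 2.74), with an adjusted p of 0.311 in edgeR and 0.0588 in DESeq2, so it did not pass the threshold. Without ApcMin replicate 1 the log2 fold change was 0.77, with an adjusted p of 0.468 in edgeR.

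Wif1 (chr10:121033960-121100650, plus strand) was at 7.10, 6.63 and 6.61 log2 CPM in Apc1322T replicates 1 to 3 and at 6.47, 7.40 and 7.19 in ApcMin replicates 1 to 3. The lowest of the 6 libraries was an ApcMin library, as was the highest, and the groups overlapped. Its log2 fold change was 0.28 (SE 0.26), with a 95% interval of -0.35 to 0.91 and an adjusted p of 0.614 in edgeR. It was 0.081 without ApcMin replicate 2 and 0.50 without ApcMin replicate 1.

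Notum (chr11:120653788-120661175, minus strand) showed the same arrangement with a wider spread. It was at 8.04, 7.55 and 7.50 log2 CPM in Apc1322T replicates 1 to 3 and at 7.18, 7.91 and 8.36 in ApcMin replicates 1 to 3. The 3 ApcMin libraries spanned 1.18 log2 units, and the group means differed by 0.12. For Notum the log2 fold change was 0.18 (SE 0.31, 95% interval -0.57 to 0.93, adjusted p 0.796 in edgeR), and it turned to -0.13 without ApcMin replicate 3.

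Dkk2 (chr3:132085292-132180304, plus strand) had the widest range within a genotype of the 10. It was at 3.87, 3.43 and 3.43 log2 CPM in Apc1322T replicates 1 to 3 and at 4.56, 4.87 and 2.78 in ApcMin replicates 1 to 3. ApcMin replicate 3 was the lowest of all 6 libraries, while the other ApcMin libraries were the highest. Dkk2 had a log2 fold change of 0.72 (SE 0.51, 95% interval -0.51 to 1.95, adjusted p 0.507 in edgeR), and ranged from 0.34 without ApcMin replicate 2 to 1.13 without ApcMin replicate 3.

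Dkk3 (chr7:112116017-112159057, minus strand) was at 6.92, 6.31 and 6.28 log2 CPM in Apc1322T replicates 1 to 3 and at 6.25, 6.69 and 7.03 in ApcMin replicates 1 to 3. The groups overlapped almost completely. Dkk3 had a log2 fold change of 0.15 (SE 0.25, 95% interval -0.46 to 0.76, adjusted p 0.784 in edgeR), and -0.052 without ApcMin replicate 3.

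Of the membrane inhibitors, Apcdd1 (chr18:62922231-62961179, plus strand) had the largest difference. It was at 3.50, 2.94 and 2.90 log2 CPM in Apc1322T replicates 1 to 3 and at 3.19, 4.44 and 4.32 in ApcMin replicates 1 to 3. ApcMin replicates 2 and 3 lay above every Apc1322T library, and ApcMin replicate 1 lay below Apc1322T replicate 1. The log2 fold change was 0.94 (SE 0.35, 95% interval 0.087 to 1.79), with an adjusted p of 0.312 in edgeR and 0.141 in DESeq2.

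The ubiquitin ligase Rnf43 (chr11:87662722-87735539, plus strand) varied least of the 10. It was at 7.17, 6.84 and 6.81 log2 CPM in Apc1322T replicates 1 to 3 and at 7.05, 7.19 and 7.42 in ApcMin replicates 1 to 3. Only Apc1322T replicate 1 reached the ApcMin range. Rnf43 had a log2 fold change of 0.28 (SE 0.14, 95% interval -0.059 to 0.61, adjusted p 0.385 in edgeR), and it was 0.17 without ApcMin replicate 3 and 0.41 without Apc1322T replicate 1.

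Its paralogue Znrf3 (chr11:5276324-5444847, minus strand) was at 5.68, 5.15 and 5.20 log2 CPM in Apc1322T replicates 1 to 3 and at 5.18, 5.72 and 5.91 in ApcMin replicates 1 to 3. ApcMin replicate 1 lay among the Apc1322T libraries. Znrf3 had a log2 fold change of 0.27 (SE 0.23, 95% interval -0.27 to 0.82, adjusted p 0.570 in edgeR), close to that of Rnf43, with 0.11 without ApcMin replicate 3 and 0.46 without Apc1322T replicate 1.

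Of the intracellular inhibitors, Axin2 (chr11:108920349-108950783, plus strand) is often read as a general measure of pathway activity. It was at 7.06, 6.78 and 6.81 log2 CPM in Apc1322T replicates 1 to 3 and at 6.82, 7.47 and 7.19 in ApcMin replicates 1 to 3. The ApcMin library of replicate 1 lay within the Apc1322T range and the other ApcMin libraries above it. The log2 fold change was 0.30 (SE 0.18, 95% interval -0.12 to 0.72, adjusted p 0.433 in edgeR), 0.13 without ApcMin replicate 2 and 0.45 without ApcMin replicate 1.

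Nkd1 (chr8:88521354-88594884, plus strand) was the only member with an estimate below 0. It was at 8.63, 8.17 and 8.06 log2 CPM in Apc1322T replicates 1 to 3 and at 7.72, 8.49 and 8.50 in ApcMin replicates 1 to 3. An Apc1322T library was the highest and an ApcMin library the lowest of the 6. The log2 fold change was -0.031 (SE 0.25, 95% interval -0.63 to 0.57, adjusted p 0.960 in edgeR), and the sign turned when Apc1322T replicate 1 or ApcMin replicate 1 was left out or when upper quartile scaling was used.

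**Figure D2:**
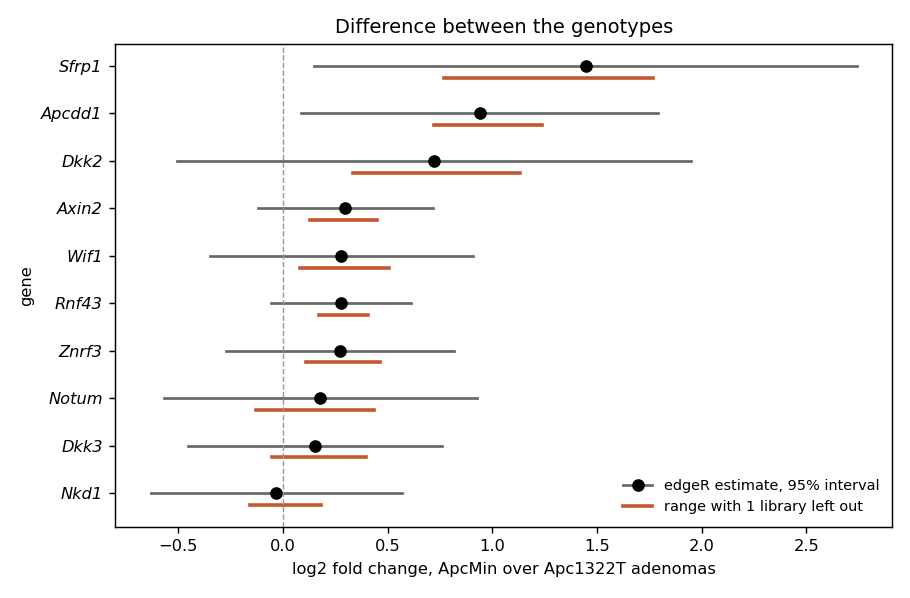
Log2 fold change of each gene (horizontal axis, ApcMin over Apc1322T) with its 95% interval from edgeR (grey) and the range when each library was left out in turn (orange). The interval of Sfrp1 (0.15 to 2.74) and that of Apcdd1 (0.087 to 1.79) lie above 0, and those of the other 8 genes include 0.

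The spread between libraries of 1 genotype was wide for these genes. The range over the 3 ApcMin libraries was 0.36 log2 units for Rnf43, between 0.65 and 2.09 for the other 9 members, and had a median of 0.36 over all genes tested. Over the 3 Apc1322T libraries it lay between 0.29 for Axin2 and 1.18 for Sfrp1, beside a median of 0.39. This range in ApcMin adenomas exceeded the difference of the group means for all 10 members. The standard error of the log2 fold change was under the median over all genes (0.18) for Rnf43 and Axin2 and above it for the other 8.

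The spread was not scattered from gene to gene. All 10 members were highest in replicate 1 among the Apc1322T libraries, which was so for 40.8% of all genes tested. Within ApcMin, 8 of the 10 were lowest in replicate 1 (32.7% of all genes), and these 8 showed both features (13.1% of all genes). Apc1322T replicate 1 exceeded the mean of replicates 2 and 3 by between 0.27 log2 units for Axin2 and 0.67 for Sfrp1. Apc1322T replicates 2 and 3 differed by at most 0.11 log2 units for every member except Sfrp1, which was lower in replicate 2 (difference -1.03). In ApcMin adenomas the mean of replicates 2 and 3 exceeded replicate 1 by between 0.25 for Rnf43 and 1.18 for Apcdd1 among the 8.

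Dkk2 and Sfrp1 were the 2 members outside this pattern. ApcMin replicate 1 lay above the mean of the other ApcMin libraries by 0.73 for Dkk2 and by 1.51 for Sfrp1. The split into 8 and 2 was made after the values were seen, and no test was made on it.

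**Figure D3:**
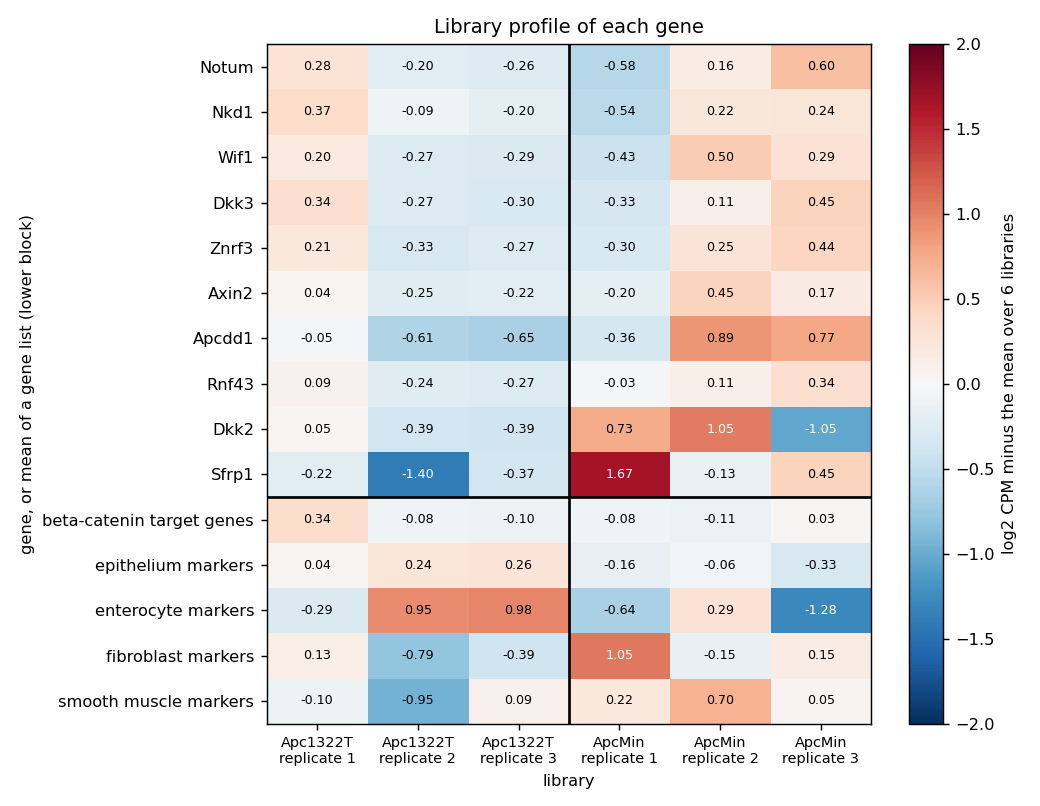
Log2 CPM minus the mean over the 6 libraries for each gene (upper block) and for the mean of 5 gene lists (lower block), in each library (columns). The first 8 genes are above their Apc1322T neighbours in Apc1322T replicate 1 and lowest among ApcMin libraries in replicate 1, where Sfrp1 and the fibroblast markers are at their highest.

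Over the 6 libraries, Pearson's r between members had a median of 0.728 and Spearman's rho a median of 0.657 over the 45 pairs. By an exact permutation test (two-sided, 720 orders of the libraries), 16 of the 45 pairs had an unadjusted p under 0.05 and 0 pairs an adjusted p under 0.05 after Benjamini-Hochberg adjustment over the 45 pairs. By rho, a lone pair could not have reached an adjusted p under 0.125. By r, for which that limit does not hold, the lowest adjusted p was 0.0625 (Notum with Dkk3, and Axin2 with Apcdd1). With 6 libraries these p-values say little. After each genotype's mean was subtracted, the median r over the 45 pairs was 0.815. The 28 pairs among the 8 members had r between 0.582 and 0.962, with a median of 0.861, but high values are partly fixed by how the 8 were picked and are a description only. Dkk3 and Znrf3 were the closest pair (r = 0.962), followed by Axin2 with Wif1 (0.956) and Notum with Dkk3 (0.956). The 16 pairs of these genes with Dkk2 or Sfrp1 had r between -0.421 and 0.433, and Dkk2 and Sfrp1 had r = 0.330 with each other. All members were read from the same 6 libraries, so these correlations are not independent of each other.

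**Figure D4:**
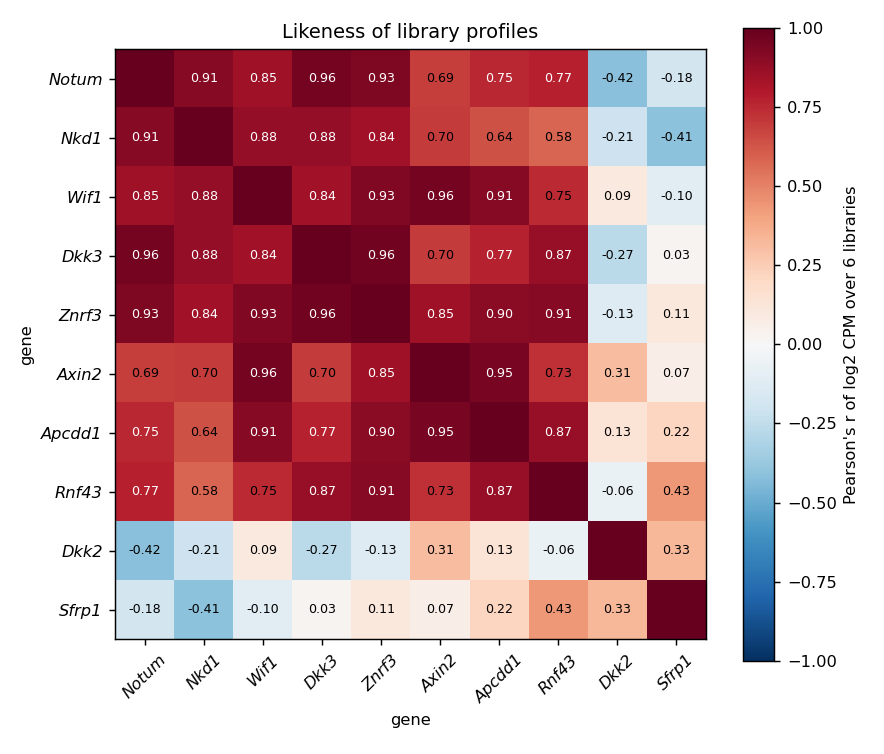
Pearson's r of log2 CPM over the 6 libraries for each pair of genes (colour and printed value). The first 8 genes have r of at least 0.582 with each other, and Dkk2 and Sfrp1 have at most 0.433 with any gene.

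Set against all genes, 7 members had another member among their 65 nearest genes, and Rnf43, Dkk2 and Sfrp1 did not. This cutoff was drawn after the ranks were seen. Among the 16535 other genes tested, ordered by r, Axin2 ranked 19th for Wif1 and Wif1 ranked 26th for Axin2. Znrf3 ranked 32nd for Dkk3, Dkk3 39th for Znrf3, Dkk3 35th for Notum, Notum 56th for Nkd1 and Axin2 65th for Apcdd1. The nearest member ranked farther down for Rnf43 (586th), and much farther for Dkk2 (3423rd) and Sfrp1 (4675th). Between 15 (Dkk2) and 241 (Rnf43) genes reached r = 0.95 with a member. With 6 libraries and this many genes, very high r values were found for all 10 members.

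The 3 genes of the most similar profile over the 6 libraries had r of at least 0.980 in each case and are given for 9 of the 10 members. They were Esyt3, Gm8956 and Eml6 for Axin2, and H1f0, Rps12-ps4 and Fbxw9 for Nkd1. They were Fancd2, Msx2 and Igkv9-123 for Wif1, and Nipsnap2, Fam172a and Pxylp1 for Notum. For Dkk3 they were Rbmx, Slc27a1 and Aspscr1. For Apcdd1 they were Gm5963, Bean1 and Itga7, and for Rnf43 Ube2e3, Asxl1 and Rnft2. For Znrf3 they were Usp27x, Epb41l5 and Ighg1, and for Sfrp1 Crispld2, Ncam1 and Sp140.

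The promoters of Axin2, Wif1 and Nkd1, which had the library pattern described above, and of Dkk2, which did not, are shown for comparison. The RefSeq promoter table for GRCm38.p6 gave 6 windows for 5 members, 250 bases before to 50 bases after the start, and the windows printed are chr11:108920099-108920398 for Axin2, chr10:121033754-121034053 for Wif1, chr8:88527383-88527682 for Nkd1 and chr3:132085042-132085341 for Dkk2, all on the plus strand. Notum, Dkk3, Apcdd1, Znrf3 and Sfrp1 are named only. Capitals mark letters searched on both strands: CTTTG (the core of a Tcf/Lef site), TATAAA, a common core promoter element, and GGGCGG, the GC box, so a match on the minus strand reads as its reverse complement.
Axin2: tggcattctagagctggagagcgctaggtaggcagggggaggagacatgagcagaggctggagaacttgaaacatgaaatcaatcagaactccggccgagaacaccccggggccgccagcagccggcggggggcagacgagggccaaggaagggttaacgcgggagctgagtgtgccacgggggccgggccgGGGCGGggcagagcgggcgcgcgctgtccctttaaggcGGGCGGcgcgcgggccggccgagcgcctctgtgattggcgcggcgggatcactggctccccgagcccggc
Wif1: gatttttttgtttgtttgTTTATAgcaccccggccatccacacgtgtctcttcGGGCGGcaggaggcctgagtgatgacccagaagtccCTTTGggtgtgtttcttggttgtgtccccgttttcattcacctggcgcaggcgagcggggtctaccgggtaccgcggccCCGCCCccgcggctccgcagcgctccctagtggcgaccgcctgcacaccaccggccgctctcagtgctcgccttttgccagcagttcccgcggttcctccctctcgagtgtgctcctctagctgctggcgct
Nkd1: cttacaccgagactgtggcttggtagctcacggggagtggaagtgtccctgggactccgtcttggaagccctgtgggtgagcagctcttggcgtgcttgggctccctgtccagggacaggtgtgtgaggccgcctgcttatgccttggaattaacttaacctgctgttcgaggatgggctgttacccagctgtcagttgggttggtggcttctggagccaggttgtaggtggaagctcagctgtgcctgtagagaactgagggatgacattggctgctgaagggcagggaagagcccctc
Dkk2: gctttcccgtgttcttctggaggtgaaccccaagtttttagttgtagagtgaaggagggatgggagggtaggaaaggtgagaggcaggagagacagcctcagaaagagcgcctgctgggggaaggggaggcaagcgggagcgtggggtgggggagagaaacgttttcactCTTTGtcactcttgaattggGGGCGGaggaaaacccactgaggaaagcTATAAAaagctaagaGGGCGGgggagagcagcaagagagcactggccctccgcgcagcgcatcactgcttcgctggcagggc

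The longer Tcf/Lef forms CTTTGAA and CTTTGAT, which contain the core, were found in 0 of the 6 member windows and in 8.65% of all 32851 windows. The core was found in 2 of the 6 (Wif1, 161 bases before the start, and Dkk2, 80 bases before it) and in 53.9% of all windows. TATAAA was found in 2 of the 6 (13.6% of all windows), 32 bases before the start on the plus strand in Dkk2 and farther upstream on the minus strand in Wif1. GGGCGG was found in 3 of the 6 (35.7% of all windows), with 2 matches each in Axin2, Wif1 and Dkk2. The CpG content, as observed over expected, was 0.886 for Axin2, 0.848 for Wif1, 0.499 for Dkk2 and 0.247 for Nkd1, beside a median of 0.384 over all windows. The 2 Rnf43 windows were at 0.634 and 0.204. The Nkd1 window and both Rnf43 windows lie inside their genes as GENCODE annotates them, downstream of the first annotated start. They are not comparable in that respect with the Axin2 window, which lies at that gene's first start. A match is a description of these letters only, and sites outside the windows were not searched.

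Levels between genes were compared as CPM per kilobase of exon sequence, over all 6 libraries (mean ± SD, n = 6). Notum was the highest at 93.1 ± 27.6, followed by Nkd1 at 68.9 ± 15.3 and Wif1 at 50.6 ± 13.4. Each of these was above the next in 6 of 6 libraries, although their ranges over libraries overlapped.

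Dkk3 (29.2 ± 7.10), Axin2 (24.0 ± 4.85) and Rnf43 (20.9 ± 3.36) formed a middle group. Dkk3 was above Axin2 in 5 of 6 libraries and Axin2 above Rnf43 in 6 of 6. This order depended on the length used, as with the longest transcript in place of all exons Rnf43 was at 31.7, Axin2 at 31.0 and Dkk3 at 29.2 CPM per kilobase.

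Sfrp1 (7.22 ± 5.82), Znrf3 (5.74 ± 1.35) and Dkk2 (4.30 ± 2.33) came next. These neighbours did not differ beyond their spread, since Sfrp1 was above Znrf3 in 2 of 6 libraries and Znrf3 above Dkk2 in 4 of 6. Apcdd1 was the lowest at 0.994 ± 0.491, below Dkk2 in 6 of 6 libraries and with no overlap of their ranges.

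**Figure D5:**
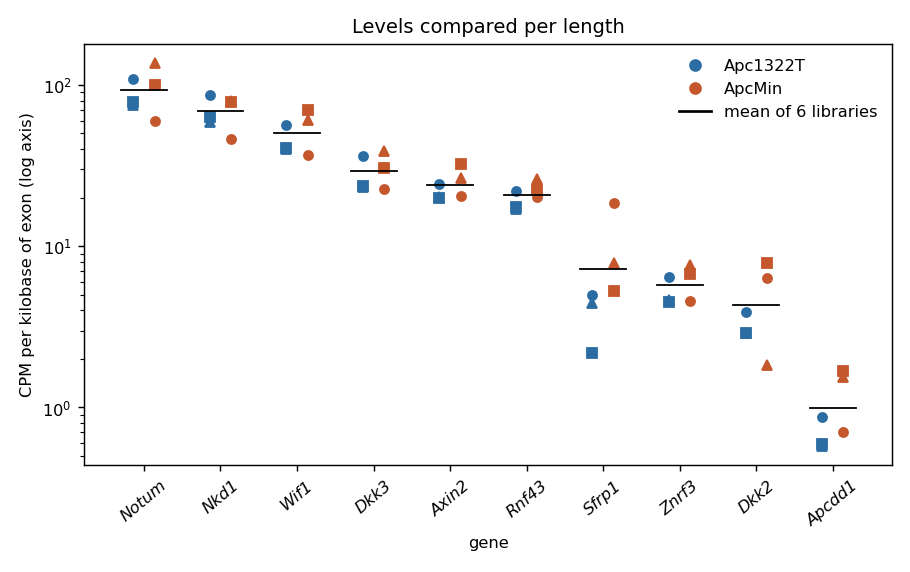
CPM per kilobase of exon (log axis) for each gene in the 3 Apc1322T (blue) and 3 ApcMin (orange) libraries, with the mean of the 6 as a line and the replicate number as the symbol (circle 1, square 2, triangle 3). Levels run from 93.1 for Notum to 0.994 for Apcdd1, and Sfrp1 and Dkk2 spread most.

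Some members overlap other genes in the annotation. Axin2 overlaps the antisense gene Gm11670, Notum the antisense genes Notumos and Myadml2os, Nkd1 the gene Gm45496, and Rnf43 the genes 1110028F11Rik and Gm25968. None of these was matched among the identifiers of the count table. The kit was strand-specific, but whether the counting used the strand is not given in the sources used here.

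The level of Sfrp1 followed that of the fibroblast markers from library to library, in a relation that did not pass adjustment. By Spearman's rho, a lone relation could not have reached an adjusted p under 0.0556 in this design. That limit does not hold for Pearson's r. The fibroblast markers (collagens, Dcn, Pdgfra and others) had a mean level of 6.60, 5.68 and 6.08 log2 CPM in Apc1322T replicates 1 to 3 and of 7.52, 6.32 and 6.62 in ApcMin replicates 1 to 3. ApcMin replicate 1 was the highest and Apc1322T replicate 2 the lowest for the markers and for Sfrp1 alike. Over the 6 libraries r was 0.969 (exact permutation p 0.00417, adjusted p 0.0833 over 20 relations) and rho was 0.943 (exact permutation p 0.0167, adjusted p 0.333). With the 2 libraries farthest from the median left out, r was 0.681.

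Of the 10 fibroblast markers 9 were higher in ApcMin, with a median log2 fold change of 0.91, and 0 were called by edgeR and 1 by DESeq2. Their summed level was 859 to 1824 CPM in Apc1322T and 1235 to 3682 CPM in ApcMin libraries, and none was at 0. The part of the fibroblast content in the difference of Sfrp1 was not tested. For the other 9 members r with the fibroblast markers lay between -0.347 and 0.436. This contrast with Sfrp1 depended on the libraries used. With the 2 farthest libraries left out, r was above that of Sfrp1 (0.681) for Dkk3 (0.986), Notum (0.933), Nkd1 (0.886), Rnf43 (0.880) and Znrf3 (0.867). It was below that of Sfrp1 for Wif1 (0.592), Apcdd1 (0.527), Axin2 (0.357) and Dkk2 (-0.268).

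Epithelium markers (Epcam, Cdh1, keratins and others), the cells in which Apc is lost, had a mean level of 10.29, 10.50 and 10.52 log2 CPM in Apc1322T replicates 1 to 3 and of 10.10, 10.20 and 9.93 in ApcMin replicates 1 to 3. The labelled tissue thus held its defining markers at high levels in every library. All 8 were lower in ApcMin, with a median log2 fold change of -0.37, 6 of them had libraries that did not overlap, 5 had an unadjusted p under 0.05, and 0 were called by edgeR and 1 by DESeq2. Their summed level was 13144 to 15322 CPM in Apc1322T and 10684 to 12344 CPM in ApcMin libraries.

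Rnf43 had the strongest relation with them of the 10 members, with r = -0.898 (exact permutation p 0.0194, adjusted p 0.194 over 20 relations), rho = -0.829 (exact permutation p 0.0583, adjusted p 0.389) and r = -0.674 without the 2 farthest libraries. All 10 members had a negative r with the epithelium markers, and 0 of the 20 relations passed an adjusted p of 0.05. The share of all genes with a negative r was not computed. Without the 2 farthest libraries the shared sign was lost, as r was 0.316 for Nkd1 and 0.248 for Notum. For the rest it lay between -0.929 for Sfrp1 and -0.024 for Dkk3. The part of the epithelial share in the members' differences was not tested.

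Marker lists of other cell types also had unlike levels in the genotypes or in single libraries, with 0 markers called by edgeR. DESeq2 called 3 squamous, 1 goblet and 1 endothelial marker of these lists. All 8 enterocyte markers were lower in ApcMin (median -0.84), with a summed level of 16017 to 26800 CPM in Apc1322T and 8722 to 19013 CPM in ApcMin libraries. By mean log2 level, enterocyte markers were at 9.71, 10.95 and 10.98 in Apc1322T replicates 1 to 3 and at 9.36, 10.29 and 8.72 in ApcMin replicates 1 to 3. Within Apc1322T they were lowest in replicate 1, where the members were highest. Within ApcMin, 5 members were highest in replicate 3, where the enterocyte markers were lowest, 4 were highest in replicate 2, where the markers were highest, and Sfrp1 was highest in replicate 1. All 7 goblet markers were lower (median -0.54), with summed levels of 6303 to 9596 CPM in Apc1322T and 4304 to 6479 CPM in ApcMin.

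All 8 smooth muscle markers were higher in ApcMin (median 0.61, 157 to 293 CPM against 308 to 444 CPM), as were all 6 endothelial markers (median 0.28, 137 to 196 CPM against 180 to 248 CPM) and 7 of 8 immune markers (median 0.52, 408 to 550 CPM against 332 to 971 CPM). Of the Paneth markers 4 of 5 were higher (median 0.56, 1438 to 2400 CPM against 2378 to 2548 CPM), and of the tested squamous markers 5 of 6 (median 1.63, 10.8 to 13.3 CPM against 37.7 to 51.9 CPM), with Sprr1b at 0 in every library. Of the pancreas acinar markers (73.2 to 153 CPM against 90.2 to 240 CPM, most of it Cela1 except in ApcMin replicate 1), both tested were higher (median 3.26). Ctrb1, with a log2 fold change of 6.22, was at 0.015 without ApcMin replicate 1, the library where 8 members were lowest within ApcMin and Sfrp1 was highest. Enteroendocrine markers (4 higher and 3 lower, 55.2 to 104 CPM against 66.2 to 84.3 CPM) and the 3 tested neuron and glia markers (2 higher and 1 lower, 7.27 to 8.88 CPM against 9.80 to 12.1 CPM) had 0 genes under an unadjusted p of 0.05. Whether any of these moved the members was not tested.

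The other inhibitors of the pathway were read from a list of 12 further secreted antagonists and a list of 12 further membrane and intracellular inhibitors. Only 5 of the secreted antagonists passed the filter on low counts, of which 4 were higher and 1 lower in ApcMin (median log2 fold change 0.045), and Sost was at 0 in every library. All 12 membrane and intracellular inhibitors passed, with 7 higher and 5 lower (median 0.24), and 7 of the 12 had libraries that did not overlap between the genotypes (21.0% of all genes). In both lists 0 genes were called by edgeR or DESeq2, and 2 of the 5 and 4 of the 12 had an unadjusted p under 0.05 (15.1% of all genes).

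Within the membrane and intracellular list, Dact1, a Dishevelled antagonist, was at 0.85, 0.39 and 0.68 log2 CPM in Apc1322T and at 1.68, 1.19 and 1.55 in ApcMin replicates 1 to 3. Its log2 fold change was 0.86 (SE 0.27, adjusted p 0.286 in edgeR). Its paralogue Dact2 lay the other way, with a log2 fold change of -0.35 (SE 0.11, adjusted p 0.286 in edgeR). The Dkk receptor Kremen1 had a log2 fold change of 0.38 (SE 0.13, adjusted p 0.288 in edgeR) and Shisa3, which holds back Frizzled receptors, one of 1.11 (SE 0.42, adjusted p 0.311 in edgeR) at levels under 1 CPM.

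The list of Wnt receptors and co-receptors, which also held the R-spondin receptors Lgr4, Lgr5 and Lgr6, was all above the filter. Of these 15 genes 10 were higher and 5 lower in ApcMin (median log2 fold change 0.25). In edgeR 4 had an unadjusted p under 0.05 (15.1% of all genes), and 4 had libraries apart (21.0% of all genes). Fzd3 was at 1.75, 0.91 and 1.43 log2 CPM in Apc1322T and at 2.51, 2.80 and 3.46 in ApcMin replicates 1 to 3, so that every ApcMin library was higher. Its log2 fold change was 1.60 (SE 0.34), with an adjusted p of 0.257 in edgeR, and it was the only gene of the pathway lists that DESeq2 called (adjusted p 0.00244). Lgr5, a receptor for R-spondins, was the one receptor lower at an unadjusted p under 0.05, with a log2 fold change of -0.58 (SE 0.18, adjusted p 0.286 in edgeR) and overlapping libraries. Its relative Lgr6 had a log2 fold change of 1.77 (SE 0.47, adjusted p 0.278 in edgeR) and Fzd8 one of 0.90 (SE 0.26, adjusted p 0.279 in edgeR).

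The β-catenin target genes other than feedback inhibitors had estimates near 0 in the median. Of the 15 on the list, among them Lgr5, Ascl2, Myc, Cd44 and Sox9, 14 passed the filter, and 4 were higher and 10 lower in ApcMin, with a median log2 fold change of -0.071 (0.017 over all genes tested). Only Lgr5 had an unadjusted p under 0.05, and the difference from the inhibitors was not tested. For 0 of the 14 did the libraries separate by genotype. Their mean level was 6.59, 6.16 and 6.15 log2 CPM in Apc1322T replicates 1 to 3 and 6.16, 6.13 and 6.27 in ApcMin replicates 1 to 3. Within Apc1322T, replicate 1 was again the highest, as for all 10 inhibitors. Over all 6 libraries it was the highest for this mean and for Nkd1, while the other 9 inhibitors were highest in an ApcMin library. The dip of the 8 inhibitors in ApcMin replicate 1 was not seen in this mean. However, the targets Sp5, Tnfrsf19, Lef1 and Tcf7 were lowest there within ApcMin and highest in Apc1322T replicate 1 within Apc1322T. The other tested targets were not lowest in ApcMin replicate 1.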

How the data were processed

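RNA-seq libraries of 3 Apc1322T and 3 ApcMin adenoma samples were analysed, grouped by the sample labels. The authors quantified reads against the GRCm38 transcriptome with Salmon, imported them with tximport and deposited estimated counts per gene, not normalised. The expected (estimated) counts deposited were rounded to whole numbers here. Symbols came from GENCODE M21 (34582 of 34866 identifiers matched). Genes were kept by filterByExpr (minimum count 10, minimum total 15), scaled by TMM and compared in edgeR 4.0.16 (R 4.3.3; robust quasi-likelihood F test) with Benjamini-Hochberg adjustment over all genes and a threshold of 0.01. Log2 CPM used a prior count of 2. DESeq2 1.42.0 and limma-voom (limma 3.58.1) were alternatives. Procedures were tested on simulated data.

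The members and gene lists were chosen with earlier results of these data known. Pathway genes were named where the unadjusted p was under 0.05 and the libraries did not overlap, up to 4 a list. Lgr5, Sost and the genes given as examples of a list are named in addition. Pairwise correlations and promoter letters were added after the values were seen. Nothing in the labels says that same-numbered libraries belong together, and p-values measure the spread between these samples. The genes of the most similar profile to Dkk2 are not reported here. The study's microarrays were not analysed here.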

Additional observations from a re-analysis of the deposited data

How the results depend on the processing

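All 10 members stayed uncalled under every alternative run (an adjusted p under 0.05, DESeq2, limma-voom, DESeq2 size factors, upper quartile scaling, no filter, a minimum count of 50, no robust estimation, the replicate block, and leaving out any 1 library), and the smallest adjusted p of a member was 0.0588 (Sfrp1, DESeq2). Of 140 member fold changes 135 kept their direction. Nkd1 turned to 0.023 with upper quartile scaling and ranged from -0.16 to 0.18 with 1 library left out. Notum ranged from -0.13 to 0.44 and Dkk3 from -0.052 to 0.39, each below 0 without ApcMin replicate 3. The cause was not tested. The members' median log2 fold change ranged from 0.19 to 0.45 with 1 library left out. DESeq2 called 194 genes in all and 1 gene of the pathway lists. At an adjusted p under 0.05, and with no filter on low counts, edgeR called 1 gene in all, and with 1 library left out between 0 and 1 (1 without ApcMin replicate 3).

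Same-numbered libraries did not deviate together (r of -0.014, 0.16 and -0.29 over genes). Differently numbered ones had r between -0.36 and 0.33. No pairing by replicate number was thus seen, but so few libraries cannot exclude it. With the replicate block the members' median was 0.27, with 0 members and 0 genes in all called. With 3 libraries a genotype, differences smaller than the intervals given could not be detected.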
